A study of Homo sapiens with 12 samples.

Results

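The MAGE (melanoma antigen) genes analyzed here were MAGEA1, MAGEA3, MAGEA4, MAGEA6, MAGEA10, MAGEA12, MAGEB1, MAGEB2, MAGEC1 and MAGEC2, which are 10 of the 60651 genes in the count table. They were listed by symbol, with no threshold on their values but with earlier results of these data known. Each symbol matched 1 Ensembl identifier in the table. RNA-seq read counts were available for 12 libraries of 2 established human cholangiocarcinoma (bile duct cancer) cell lines, HUCCT1 and EGI-1, both labelled wild type. HUCCT1 cells received vehicle (DMSO) or 1 μM decitabine, and EGI-1 cells received vehicle, 0.5 μM decitabine, 200 nM talazoparib or both agents together, with 2 libraries in each of the 6 groups and RNA taken at 72 h. Decitabine is a nucleoside that inhibits DNA methyltransferases (DNMTs), and talazoparib inhibits the DNA repair enzyme PARP. The library names of the EGI-1 talazoparib group carry T50, which differs from the dose in the treatment protocol. The labels do not state whether the 2 libraries of a group came from separate cultures, so p-values measure only the spread between these libraries, which may be technical.

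Total counts were 32519985 to 34965627 in the 4 HUCCT1 libraries and 23139065 to 33181930 in the 8 EGI-1 libraries. A gene at 0 in 1 library could still have had up to 3 counts, which is 0.0843 to 0.0904 CPM in HUCCT1 and 0.0906 to 0.129 CPM in EGI-1, for counting error only. CPM is a count scaled to the size of its library. All 9 biliary epithelial markers were detected in every group, with KRT7 at 195897 and 227208 counts in HUCCT1 vehicle but 1190 and 1185 in EGI-1 vehicle. Of the 6 hepatocyte markers, ALB, APOB and TTR were at 0 in HUCCT1 vehicle, and APOA1, APOB and TTR were at 0 in EGI-1 vehicle. SERPINA1 gave nearly all reads of this list, at 2350 and 1590 counts in HUCCT1 vehicle and 629 and 698 in EGI-1 vehicle. The second EGI-1 combination library stood apart, with 381 counts of PTPRC and 148 of CD3E, both genes of T cells, against 2 and 0 in the first. Its 5 blood-cell markers summed to 20.7 CPM, against 2.02 to 3.63 CPM in the other 7 EGI-1 libraries, and values of both combination libraries are given beside the combination results below.

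MAGE proteins share a MAGE homology domain, through which many of them bind RING-type E3 ubiquitin ligases and change the substrates of those ligases. The type I genes (MAGE-A, MAGE-B and MAGE-C) lie in clusters on the X chromosome and are normally expressed mainly in the testis, where their products do not reach MHC class I presentation. They are expressed again in many tumors, which makes them targets of T cells, vaccines and engineered T-cell receptors. Methylation of CpG sites in their promoters is a known form of silencing in somatic cells, and binding sites of ETS family factors, with a GGA core, are known from the promoters of several MAGE-A genes. The type II genes (such as MAGED1 and MAGEF1) are expressed in many tissues.

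RefSeq promoter windows, 250 bases before to 50 after an annotated transcription start (build GRCh38.p14), were found for 8 of the 10 genes, and not for MAGEA1 and MAGEA10. The windows of MAGEA3 and MAGEA6 were the same in all 300 bases. The 7 stretches below run 5′ to 3′ on the strand of the gene, from 110 bases before the start to 10 bases from it onward. They are shown because they hold a short element that recurred across these genes. Whether that element has a part in the RNA changes in HUCCT1 was not tested. Capitals mark GGATGTG.
MAGEA3 and MAGEA6: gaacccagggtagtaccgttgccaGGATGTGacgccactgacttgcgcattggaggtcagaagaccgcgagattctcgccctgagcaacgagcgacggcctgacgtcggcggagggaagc
MAGEA4: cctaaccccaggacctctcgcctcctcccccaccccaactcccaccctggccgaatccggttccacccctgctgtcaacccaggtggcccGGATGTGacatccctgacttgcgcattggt
MAGEA12: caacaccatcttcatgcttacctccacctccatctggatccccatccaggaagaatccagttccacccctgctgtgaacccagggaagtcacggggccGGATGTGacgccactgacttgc
MAGEB1: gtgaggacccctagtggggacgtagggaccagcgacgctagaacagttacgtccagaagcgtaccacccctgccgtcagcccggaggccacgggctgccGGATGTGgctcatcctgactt
MAGEB2: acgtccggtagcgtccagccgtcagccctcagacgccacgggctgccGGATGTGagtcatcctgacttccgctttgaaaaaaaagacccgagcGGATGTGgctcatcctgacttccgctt
MAGEC1: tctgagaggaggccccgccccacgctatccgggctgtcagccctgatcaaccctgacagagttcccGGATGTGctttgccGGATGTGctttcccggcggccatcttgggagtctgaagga
MAGEC2: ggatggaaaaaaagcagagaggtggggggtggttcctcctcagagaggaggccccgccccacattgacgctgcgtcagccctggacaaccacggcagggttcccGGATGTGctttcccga
The stretches lie at chrX:152698684-152698803 (plus strand, MAGEA3), chrX:152769680-152769799 (minus strand, MAGEA6), chrX:151912364-151912483 (plus), chrX:152733647-152733766 (plus), chrX:30247036-30247155 (plus), chrX:30215453-30215572 (plus), chrX:141903784-141903903 (plus) and chrX:142205281-142205400 (minus). GGATGTG began 86 bases before the start in MAGEA3 and MAGEA6, 20 bases before in MAGEA4, 12 in MAGEA12, 11 in MAGEB1 and 6 in MAGEC2. MAGEB2 held it at 63 and 17 bases and MAGEC1 at 44 and 30 bases before the start. Searched on both strands in the full windows, GGATGTG was found in 13 of the 14 windows and in all 8 genes, against 4.29% of the 35116 windows of all genes. The overlapping form CCGGATGT was found in 6 of the 8 genes, all but MAGEA3 and MAGEA6, against 0.701% of all windows. CCGGAAG, the usual strong ETS form, was in none of the 8 genes (10.3% of all windows), CACGTG was in none (7.26%), and the GC box GGGCGG was in MAGEA4, MAGEC1 and MAGEC2 (45% of all windows). These letters were chosen after the windows had been read, several of the genes are near copies of each other, and no match here is a measured binding site. The windows nearest the 5′ end of each gene held 9 to 21 CpG, except the first MAGEB1 window with 1, beside a median of 14 (quartiles 4 and 28) over all windows. The MAGEB1 stretch shown belongs to its second start, 3431 bases into the gene, where the window held 18 CpG.

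The 10 genes lie in 3 regions of the X chromosome (GENCODE 44, GRCh38). MAGEB2 (chrX:30215563-30220089) and MAGEB1 (chrX:30243715-30252040) form the first, and MAGEC1 (chrX:141903894-141909374) and MAGEC2 (chrX:142202342-142205290, minus strand) the second. The third holds MAGEA4 (chrX:151912495-151925171), MAGEA10 (chrX:152133310-152138578, minus), MAGEA3 (chrX:152698767-152702347), MAGEA12 (chrX:152733757-152737669), MAGEA6 (chrX:152766136-152769716, minus) and MAGEA1 (chrX:153179284-153183880). Counts are over the exons of each gene.

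In HUCCT1, decitabine raised all 10 genes. Every gene was tested and every one was called higher by edgeR's quasi-likelihood test (adjusted p under 0.05 over all genes), where 19.6% of the 22479 genes tested were called higher and 33.5% in either direction. All but MAGEA3 and MAGEA12 had fewer than 10 counts in both vehicle libraries and so passed the filter on low counts through the decitabine libraries alone, which fixed the direction of their calls. For those 8 genes the calls are a description, and the share of called genes is no measure to read them against. MAGEA3 and MAGEA12 could have passed the filter through either group. Without any filter on calls, both decitabine libraries lay above both vehicle libraries for 10 of 10 genes, against 28.7% of the 40659 genes with a count. Because the 10 genes were chosen with earlier results of these data known, that share is background and no test. Added up, the 10 genes made 4.52 and 5.24 CPM with vehicle but 119 and 134.8 CPM with decitabine, a 26-fold ratio of the means. In RNA from a whole culture, a few cells with much MAGE RNA and many cells with little cannot be told apart. Some markers of other cell types moved with the treatment. The 5 stromal and endothelial markers summed to 25.3 and 27.3 CPM in vehicle and 154.6 and 179.6 CPM with decitabine, mostly COL1A1 (805 and 896 counts, then 5089 and 5611), with DCN at 0 in vehicle. The 9 biliary markers fell in sum from 13620 and 15050 to 8569 and 9711 CPM, with 6 called lower and 1 higher. The 5 blood-cell markers went from 2.61 and 3.38 to 4.11 and 4.76 CPM, and CD3E from 0 and 1 to 17 and 23 counts. Other markers of these lists did not rise, with PTPRC at 3 and 4, then 3 and 3 counts, and COL3A1 at 2 and 0, then 1 and 1. HBB went from 11 and 26 to 7 and 18 counts. The part of these markers in the MAGE result was not tested. The plot of levels by library shows the 10 genes in all groups.

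**Figure D1:**
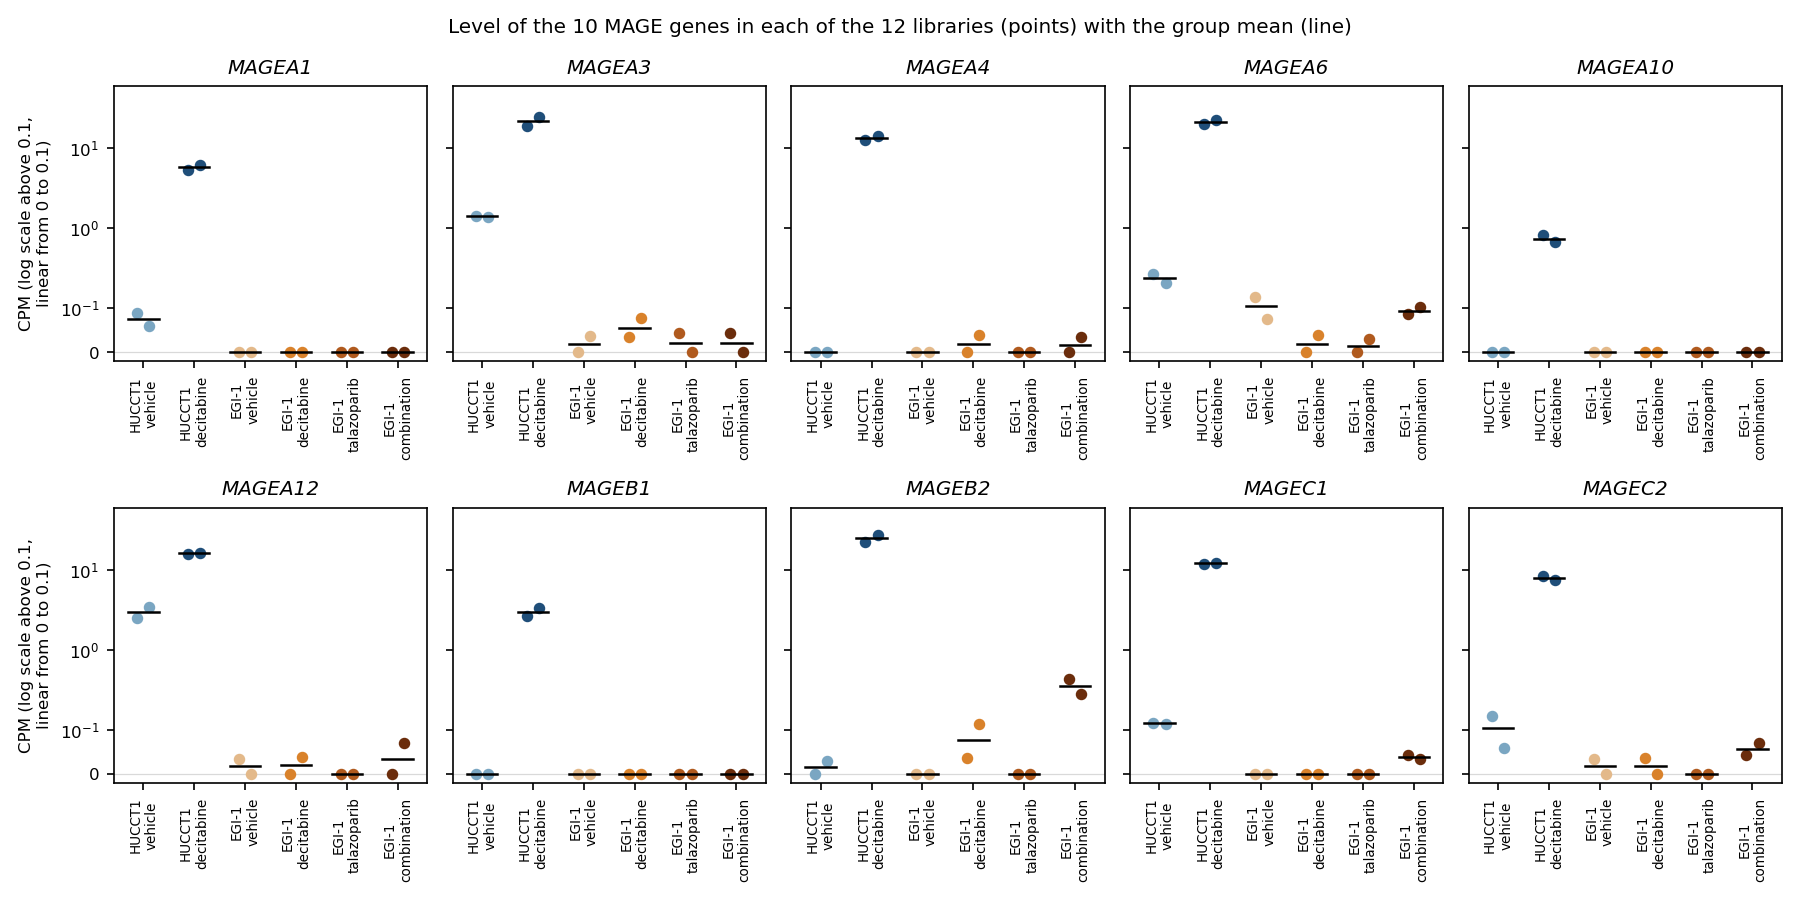
Level of each MAGE gene in CPM (y axis, logarithmic above 0.1 and linear from 0 to 0.1) in the 6 groups (x axis). Points are the 2 libraries of a group and lines are means. In all 10 panels both HUCCT1 decitabine points lie above both HUCCT1 vehicle points, while the EGI-1 points lie at or near 0, with MAGEB2 in the combination the highest group at 0.352.

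In HUCCT1 vehicle, 5 of the genes were at or under 3 counts in both libraries (MAGEA1, MAGEA4, MAGEA10, MAGEB1 and MAGEB2), and all 5 reached 10 counts or more in both decitabine libraries. Of all 33597 genes that started at or under 3 counts, 2.31% did so. That total includes genes with no read in any HUCCT1 library, which lowers the share. The other 5 already had reads in vehicle, at 5 and 2 counts for MAGEC2 up to 83 and 114 for MAGEA12.

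Among the MAGE-A genes, MAGEA4, an antigen targeted by engineered T-cell receptors and a partner of the ubiquitin ligase RAD18, had 0 and 0 counts in vehicle and 454 and 466 with decitabine, which is at least 150-fold higher against a floor of 3 counts per library. MAGEA10 had 0 and 0 counts in vehicle and 29 and 22 with decitabine, at least 8.27-fold higher. Both genes therefore went from no read to a clear signal, although MAGEA10 remained the weakest of the 10. MAGEA1, the first MAGE antigen found through T cells of a patient with melanoma, had 3 and 2 counts in vehicle and 189 and 207 with decitabine, a ratio of 77.3 with a 95% counting interval of 32.9 to 239. MAGEA3, whose protein works with the ligase TRIM28, had 47 and 47 counts in vehicle and 666 and 825 with decitabine, a mean level of 21.8 ± 4.35 CPM (SD, n = 2) against 1.4 ± 0.0109. Its log2 fold change was 3.96 ± 0.19 (SE; edgeR adjusted p = 1.06e-14). MAGEA6, nearly the same protein as MAGEA3, had 9 and 7 counts in vehicle and 721 and 744 with decitabine, with a log2 fold change of 6.46 ± 0.23 (SE; edgeR adjusted p = 4.38e-17). MAGEA3 and MAGEA6 therefore ended at like levels from starting levels that did not overlap. MAGEA12, the MAGE-A gene with the most vehicle reads, had 83 and 114 counts in vehicle and 564 and 541 with decitabine. Its log2 fold change of 2.45 ± 0.17 (SE; edgeR adjusted p = 2.46e-11), a 5.48-fold ratio of mean levels, was the smallest of the 10.

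Both MAGE-B genes rose from the floor. MAGEB2, whose protein is known to lower the stress granule factor G3BP1, had 0 and 1 counts in vehicle and 800 and 899 with decitabine, a ratio of 1660 (95% counting interval 297 to 65600). MAGEB1 had 0 and 0 counts in vehicle and 93 and 111 with decitabine, at least 33.3-fold higher. The neighbours therefore differed in treated level although both were at or near 0 in vehicle.

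Both MAGE-C genes had a few vehicle reads and rose by like amounts. MAGEC1, which carries a long run of repeats before its MAGE domain, had 4 and 4 counts in vehicle and 419 and 406 with decitabine, with a log2 fold change of 6.61 ± 0.29 (SE; edgeR adjusted p = 1.52e-15). MAGEC2, another partner of TRIM28, had 5 and 2 counts in vehicle and 297 and 250 with decitabine, a ratio of 76.3 (95% counting interval 36.8 to 191; edgeR adjusted p = 1.45e-13). Over the 10 genes the median fitted log2 fold change was 6.54, and 6.21 with the 3 genes at 0 in vehicle set at their lower bound, beside 0.0020 over all genes tested.

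Levels between genes were compared as CPM per kb of annotated exon. With decitabine, MAGEB2 stood highest at 15.4 ± 2.03 CPM per kb (SD, n = 2), followed by MAGEA3 at 12.3 ± 2.45, MAGEA6 at 11.7 ± 0.833 and MAGEA12 at 8.18 ± 0.163. The first 3 overlapped their neighbours in this order, while MAGEA12 lay below MAGEA6 and above the rest in both libraries. MAGEC2 at 3.98 ± 0.289 and MAGEA4 at 3.98 ± 0.269 overlapped, and MAGEA1 at 3.38 ± 0.383, MAGEC1 at 2.82 ± 0.0762, MAGEB1 at 1.49 ± 0.259 and MAGEA10 at 0.255 ± 0.0371 followed without overlap. The highest mean was 60.5 times the lowest. In vehicle the order was another one, led by MAGEA12 at 1.49 ± 0.321 CPM per kb, MAGEA3 at 0.79 ± 0.0062 and MAGEA6 at 0.13 ± 0.024, with no overlap among these 3. MAGEB2, at 1 count in all, was thus near the bottom of the vehicle order and at the top of the treated one. Each group had 2 libraries, so neighbours with no overlap need not differ beyond the spread of more libraries.

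**Figure D2:**
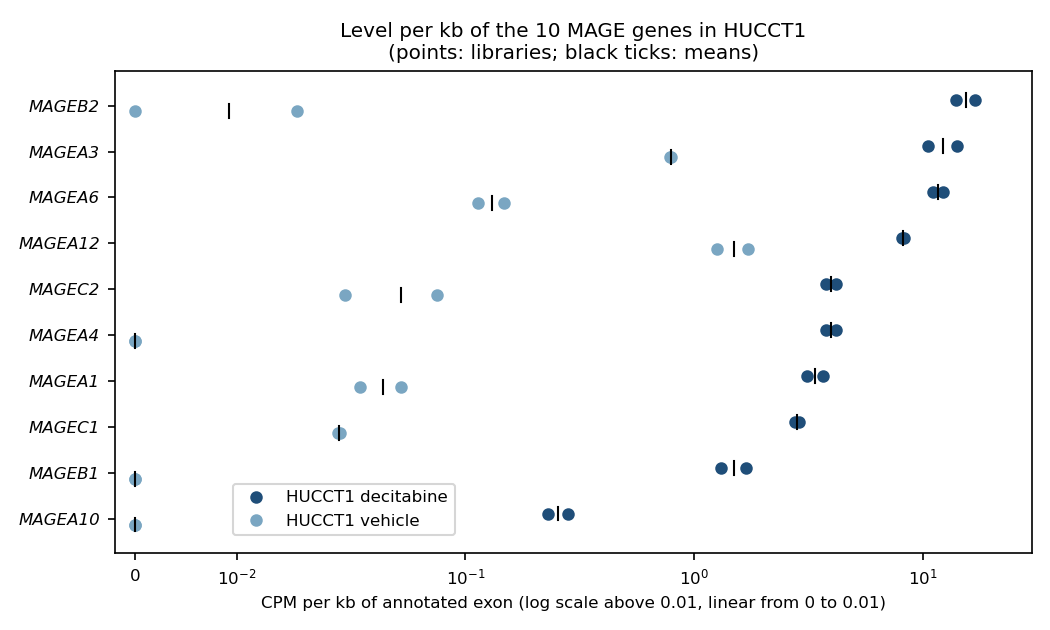
Level per kb of annotated exon of the 10 MAGE genes in HUCCT1 (x axis, CPM per kb, logarithmic above 0.01 and linear from 0 to 0.01), sorted by the decitabine mean. Points are libraries and black ticks are means. Decitabine means ran from 0.255 in MAGEA10 to 15.4 in MAGEB2, and vehicle means from 0 to 1.49.

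Reads of near-identical genes can be lost or shared in counting, and how the authors treated reads with several matches is not given in the sources used here. The coding sequences of MAGEA3 and MAGEA6 were identical at 924 of 942 aligned bases (98.1%), and MAGEA12 was identical to MAGEA6 at 92.7% and to MAGEA3 at 92.6% of aligned bases. Only 56.5% of the 75-base and 70.3% of the 150-base exon words of MAGEA3 occur once in the genome, and 54.9% and 70.3% for MAGEA6, so the split of reads between these 2 genes is uncertain. MAGEA4 had 82.1% single 75-base words and 100% single 150-base words, and MAGEA12 had 94.2% and 98.8%. The other 6 genes had at least 99.4% at 75 bases. MAGEA4 overlaps its antisense RNA MAGEA4-AS1 over 1474 bases, where 0 and 0 counts in vehicle and 13 and 21 with decitabine were recorded. MAGEC2 lies within an RNA gene of the other strand, ENSG00000288098, with 6 and 4 counts in vehicle and 7 and 4 with decitabine. The setting for strand in counting is not stated, so reads of each of these pairs cannot be told apart. On the same strand, MAGEA10 overlaps ENSG00000266560 over 5247 bases (0 and 1 counts in vehicle, 0 and 0 with decitabine). MAGEA12 overlaps CSAG4 over 3843 bases, a gene that is not in the count table. MAGEB1 shares 473 bases with MAGEB4, which had 0 counts in all 12 libraries. Where both genes are in the count table, reads in such overlaps may have been dropped or shared in counting.

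The rest of the MAGE family was split by type. Of 18 other type I genes and pseudogenes, 8 were tested in HUCCT1 and all 8 were called higher with decitabine. MAGEA8 had 0 and 0 counts in vehicle and 113 and 111 with decitabine, at least 36.5-fold higher. MAGEA11, a coregulator of the androgen receptor, had 3 and 0 counts in vehicle and 188 and 145 with decitabine (log2 fold change 6.64 ± 0.47, SE; edgeR adjusted p = 2.14e-11). MAGEB17 was expressed in vehicle at 0.685 ± 0.163 CPM (SD, n = 2) and reached 4.91 ± 0.427 CPM (log2 fold change 2.84 ± 0.27, SE; edgeR adjusted p = 5.7e-09). The other 5 called higher were MAGEA9, MAGEB6, MAGEB10, MAGEB16 and MAGEC3. Of the 18, 6 were at 0 in both decitabine libraries, MAGEB4, MAGEB5 and MAGEB18 among them, so not every type I gene gave reads after treatment. MAGEA2 (38 and 5 counts with decitabine) and MAGEA2B (8 and 4) have no exon word of either length that occurs once, and MAGEA9 has 9.47% at 75 bases, so their counts are uncertain. The median fitted log2 fold change of the 8 was 6.22, and 3.87 with the 3 of them at 0 in vehicle at their bound. A gene with fewer than 10 counts in both vehicle libraries passed the filter on low counts through the decitabine libraries alone and so had to be higher. This held for all of the 8 but MAGEB17, and it holds in the lists that follow as among the 10 genes.

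Of 12 broadly expressed type II genes, 4 were tested and 1 was called higher, beside 19.6% of all genes tested. MAGED1 (log2 fold change -0.10 ± 0.12, SE), MAGED2 (-0.06 ± 0.11) and MAGEF1 (-0.08 ± 0.12) were not called (edgeR adjusted p = 0.529, 0.727 and 0.64). MAGED1, a partner of the neurotrophin receptor p75, had 2746 and 3293 counts in vehicle and 2794 and 2941 with decitabine. MAGEH1 was the one called, with 0 and 0 counts in vehicle and 20 and 19 with decitabine, at least 6.35-fold higher (edgeR adjusted p = 5.39e-05). MAGED4 and MAGED4B were at 0 in all 12 libraries and have no exon word that occurs once, so no level can be read for them.

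Other X-linked cancer-testis genes rose as well. Of 66 listed, 21 were tested and all 21 were called higher, with a median fitted log2 fold change of 7.45, or 3.35 with the 13 genes at 0 in vehicle at their bound. CTAG2, of the NY-ESO-1 family of antigens, had 2 and 0 counts in vehicle and 436 and 424 with decitabine. TFDP3, a relative of the E2F partner DP1, had 1 and 0 counts in vehicle and 357 and 301 with decitabine. SSX1, known from the fusion of synovial sarcoma, had 0 and 0 counts in vehicle and 122 and 102 with decitabine, at least 36.4-fold higher. With decitabine, 12 of the 66 were at 0 in both libraries. Many families on this list are near copies, which was not resolved here. Germ-cell markers moved with these genes, as the 6 listed summed to 0.899 and 0.741 CPM in vehicle and 108 and 94.4 CPM with decitabine, almost all of it DAZL at 0 and 0 counts in vehicle and 3598 and 2915 with decitabine. DDX4 rose from 0 and 0 to 137 and 119 counts and SYCP3 from 30 and 25 to 93 and 95, whereas the late spermatid markers PRM1 and PRM2 had at most 2 counts and TNP1 was at 0. The part of these markers in the MAGE result was not tested.

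**Figure D3:**
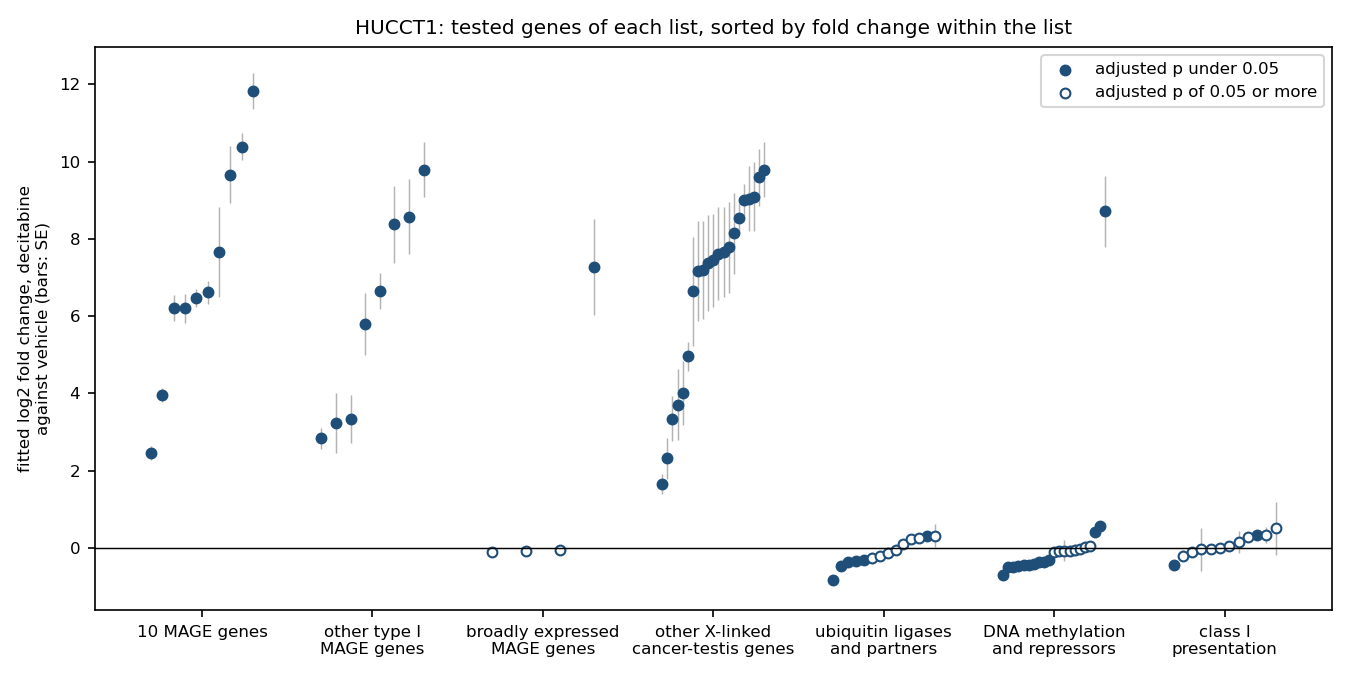
Fitted log2 fold change of decitabine against vehicle in HUCCT1 (y axis; bars are standard errors) for the tested genes of 7 lists (x axis), sorted within each list. Filled points passed an adjusted p of 0.05 in edgeR and open points did not; values of genes at 0 in vehicle depend on the small count the fit adds. The 10 MAGE genes lie between 2.45 and 11.83, and all 8 other type I and all 21 other X-linked genes are filled and above 0.

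Genes that MAGE proteins work with changed by under 1 on the log2 scale. Of 16 ubiquitin ligases and partners, 14 were tested, with 1 called higher and 5 lower, where 33.5% of all genes tested were called in either direction. SKP2, a cell-cycle ubiquitin ligase subunit, fell from 82.9 ± 4.71 to 46.5 ± 0.399 CPM (SD, n = 2). RAD18, the partner of MAGEA4, fell from 47.3 ± 5.76 to 34.1 ± 2.33 CPM, and TRIM28, the partner of MAGEA3, MAGEA6 and MAGEC2, from 654 ± 34 to 511 ± 25.2 CPM. PJA1, a partner of MAGED1, rose from 29.5 ± 2.28 to 36.6 ± 2.32 CPM (edgeR adjusted p = 0.0466). In each of the 6 groups, 14 of the 16 partners had 10 or more counts in both libraries, also where the MAGE genes were near 0. TRIM27 and TRIM31 did not. With alternate sequences of the genome build counted, TRIM27 has no 75-base exon word that occurs once, and TRIM31 has 0.495%. Whether the reference used held those sequences is not stated, so no level can be read for these genes.

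The DNA methylation machinery and repressors of germline promoters gave 3 genes called higher and 10 lower of 21 tested, beside 33.5% of all genes called in either direction. DNMT1, the maintenance methyltransferase, had 10669 and 11608 counts in vehicle and 9423 and 8928 with decitabine, a log2 fold change of -0.31 ± 0.11 (SE; edgeR adjusted p = 0.0227). UHRF1, which brings DNMT1 to newly made DNA, had a log2 fold change of -0.71 ± 0.11 (SE; edgeR adjusted p = 1.01e-05). DNMT3B, a de novo methyltransferase, had 929 and 1071 counts in vehicle and 1503 and 1528 with decitabine, a log2 fold change of 0.57 ± 0.12 (SE; edgeR adjusted p = 0.000509). DNMT3A was not called, at 330 and 314 counts in vehicle and 333 and 343 with decitabine (edgeR adjusted p = 0.876). ZBTB38 and HDAC1 were also among the 10 lower, and MBD1 was higher. CTCFL (BORIS), a germline relative of CTCF, rose from 0 and 0 to 46 and 60 counts, at least 17.4-fold. Of 15 class I presentation genes 12 were tested, with only ERAP1 called higher and ERAP2 lower (33.5% of all genes in either direction), both by under 1 on the log2 scale. With alternate sequences of the genome build counted, TAP1, TAPBP, PSMB8 and PSMB9 have no 75-base exon word that occurs once. TAP2 has 0.78%, B2M 8.8% and HLA-C 15.5%. Whether the reference used held those sequences is not stated, so the counts of these genes, and their lack of calls, are uncertain. RNA says nothing of methylation itself, which was not measured in these files.

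In EGI-1 the 10 genes stayed at or near 0 under every treatment. None of the 10 passed the filter on low counts, so none was tested with edgeR in any of the 6 EGI-1 comparisons, where 0.544% (decitabine against vehicle), 4.12% (talazoparib against vehicle), 18.7% (combination against vehicle), 7.68% (combination against decitabine), 1.92% (combination against talazoparib) and 0.161% (combination beyond the sum of the single effects) of 22406 genes were called in either direction. The 10 genes together had 6 and 3 counts in the vehicle libraries, 3 and 8 with decitabine, 1 and 1 with talazoparib and 15 and 17 with the combination. As CPM these sums were 0.208 and 0.114 in vehicle, 0.106 and 0.309 with decitabine, 0.043 and 0.0302 with talazoparib, and 0.643 and 0.585 with the combination. The combination libraries were thus the highest of the 8, and decitabine overlapped vehicle. Pooled over libraries, the combination sum was 3.75 times that of vehicle (95% counting interval 1.75 to 8.94). It was 3.01 times that of decitabine (1.48 to 6.63) and 17.2 times that of talazoparib (4.39 to 148). Decitabine alone gave 1.25 times vehicle (0.469 to 3.4). With 2 libraries against 2, an exact permutation test cannot go below p = 0.333, the value found for the combination against vehicle (two-sided).

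MAGEB2 carried most of that sum. It had 0 and 0 counts in vehicle, 1 and 3 with decitabine, 0 and 0 with talazoparib and 10 and 8 with the combination, so the library with T-cell transcripts held the lower of the 2 combination values. Against the floor of 3 counts this was at least 3.24-fold higher than vehicle and at least 3.21-fold higher than talazoparib, and the ratio to decitabine was 4.66 (95% counting interval 1.54 to 18.9). At the filter used, the gene was not tested. Without that filter, edgeR called MAGEB2 against vehicle (log2 fold change 6.27, adjusted p = 0.0045) and against talazoparib (adjusted p = 0.0183), but not against decitabine (adjusted p = 0.328). Without the filter and without the second combination library, the call against vehicle held (adjusted p = 0.0179) and the one against talazoparib was lost (adjusted p = 0.0883), and DESeq2 gave no adjusted p for this gene. With no filter edgeR took the spread as fully known for 92.2% of genes (93.9% without that library, 0% with the filter), so these p-values are too small and the calls are not read as results. When 1 vehicle library was left out, MAGEB2 passed the usual filter and was not called against vehicle, with edgeR adjusted p = 0.137 without the first and 0.122 without the second. The other 9 genes summed to 5 and 9 counts with the combination against 6 and 3 in vehicle, a ratio of 1.64 (0.662 to 4.3), a difference not detectable at this depth. Against talazoparib (1 and 1 counts) the ratio of these 9 genes was 7.53 (1.73 to 68.3), and against decitabine (2 and 5 counts) it was 2.07 (0.783 to 6.07). MAGEB2 stood at 0.352 ± 0.108 CPM in the combination and at 24.8 ± 3.26 CPM in HUCCT1 with decitabine (SD, n = 2), at different doses.

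MAGEA6 had the most reads of the 10 in EGI-1 vehicle, at 4 and 2 counts in vehicle, 0 and 1 with decitabine, 0 and 1 with talazoparib and 2 and 3 with the combination. Because it shares most of its sequence with MAGEA3 (0 and 1 counts in vehicle), these few reads cannot be placed with certainty. MAGEC1 had 1 and 1 counts and MAGEC2 1 and 2 in the combination. MAGEA1, MAGEA10 and MAGEB1 were at 0 in all 8 EGI-1 libraries. Both treated libraries lay above both vehicle libraries for 1 of the 6 MAGE genes with a count in the comparison with decitabine (17.4% of all genes with a count), 0 of 4 with talazoparib (19.6%) and 3 of 7 with the combination (21.9%). Of the 9 at 3 counts or fewer in both vehicle libraries, none went from 3 counts or fewer to 10 or more in both libraries, as 0.0149% of such genes did with decitabine, 0.0179% with talazoparib and 0.0925% with the combination. These shares also count genes with no read in the libraries compared.

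**Figure D4:**
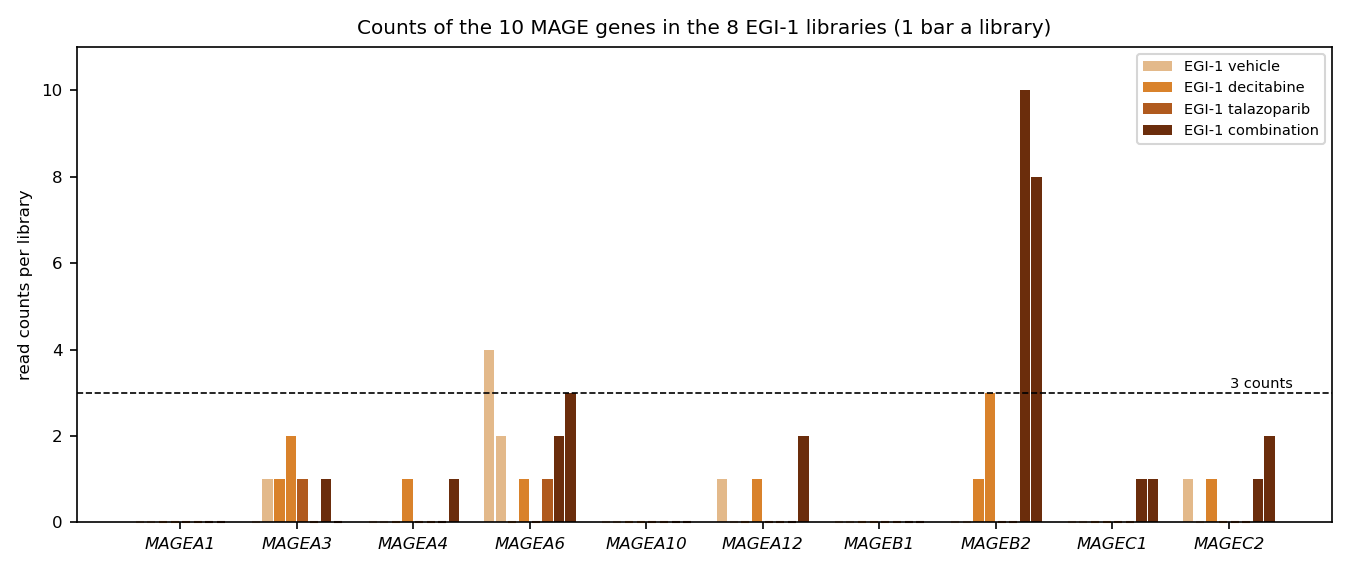
Read counts of the 10 MAGE genes in the 8 EGI-1 libraries (y axis, linear), 1 bar a library and a baseline mark where the count is 0. The dashed line is at 3 counts. Only MAGEB2 with the combination (10 and 8 counts) and MAGEA6 in 1 vehicle library (4 counts) lie above it.

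A type I relative was well expressed in EGI-1. MAGEB17 had 612 and 568 counts in vehicle, 498 and 654 with decitabine, 491 and 738 with talazoparib and 453 and 512 with the combination, which is 21.3 ± 0.223 CPM in vehicle and 18.5 ± 1.26 with the combination (SD, n = 2). It was tested and not called in any EGI-1 comparison. MAGEA8 had 0 and 0 counts in vehicle, 2 and 2 with decitabine, 0 and 1 with talazoparib and 3 and 4 with the combination. None of the 66 other X-linked cancer-testis genes passed the filter in EGI-1. Type II genes were expressed there, and MAGED2 rose with the combination from 685 and 626 counts (23.7 CPM in each vehicle library) to 699 and 888 counts (mean 30.3 ± 0.438 CPM, SD, n = 2) with the combination (log2 fold change 0.35 ± 0.08, SE; edgeR adjusted p = 0.0065). In the DNA methylation list, DNMT3B rose from 33.5 and 32.5 to 45.3 and 43.5 CPM with the combination (log2 fold change 0.43 ± 0.08, SE; edgeR adjusted p = 0.000768), UHRF1 fell by 0.38 on the log2 scale (298 and 296 CPM in vehicle, 235 and 223 with the combination), and DNMT1 was not called (edgeR adjusted p = 0.465). With decitabine alone none of the 3 DNMT genes was called in EGI-1 (edgeR adjusted p = 0.957 for DNMT1, 0.937 for DNMT3A and 0.177 for DNMT3B). Of the 14 ubiquitin ligases and partners tested, 1 was called higher and 4 lower with the combination, where 18.7% of all genes were called in either direction. The one higher was PJA1 at 15.2 and 14.1 CPM in vehicle and 18.9 and 19.1 with the combination. HLA-B, the one presentation gene called higher, had 1 and 12 counts in vehicle and 18 and 56 with the combination, the 56 in the library with T-cell transcripts, whose part in it was not tested. Only 39.3% of the 75-base exon words of HLA-B occur once with alternate sequences of the genome build counted, so its counts are uncertain.

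The lines differed before treatment. Decitabine was given at 1 μM to HUCCT1 and 0.5 μM to EGI-1. The library names of the lines also carry different codes, whose meaning the labels do not give, so line, dose and code cannot be told apart below. In vehicle, MAGEA3 (47 and 47 counts in HUCCT1, 0 and 1 in EGI-1) and MAGEA12 (83 and 114 against 1 and 0) were higher in HUCCT1 by log2 fold changes of 6.18 ± 0.62 and 7.25 ± 0.55 (SE; edgeR adjusted p = 1.88e-08 and 4.21e-10). These sizes rest on 1 count in 1 EGI-1 library. Without the first EGI-1 vehicle library they were 5.26 and 9.57, and without the second 8.52 and 6.46, and both genes were called each time. MAGEC1, at 4 and 4 counts against 0 and 0, was called as well (edgeR adjusted p = 0.0026), and so was MAGEA1 at 3 and 2 counts against 0 and 0, which is at the floor. These 4 of 10 called stand beside 55.8% of 25096 genes called between the lines in either direction and 28.5% higher in HUCCT1. Without the first HUCCT1 vehicle library or either EGI-1 vehicle library 3 were called, and without the second HUCCT1 vehicle library 5.

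The difference between the decitabine effects of the lines was called for 1 of the 10 genes, MAGEA6, at a log2 difference of 8.78 ± 1.11 (SE; edgeR adjusted p = 7.43e-06), where 15.9% of 25096 genes were called in either direction and 8.74% higher. Without the first EGI-1 decitabine library the MAGEA6 difference was 7.86, and without the second 11.13. MAGEA6 had fewer than 10 counts in every library outside HUCCT1 decitabine, and so passed the filter on low counts through that group alone. That favoured a positive difference, so the call is a description and the share of called genes is no measure to read it against. MAGEA3 (2.57 ± 2.03, adjusted p = 0.47 with edgeR) and MAGEA12 (2.45 ± 2.09, edgeR adjusted p = 0.505) were not called, with 0 to 2 counts in each EGI-1 library. For MAGEA1, MAGEA4, MAGEA10, MAGEB1, MAGEB2 and MAGEC1 a whole EGI-1 group was at 0 and the standard error of the difference in edgeR ran from 82.4 upward, so that test said nothing of them. DESeq2, which handles such zeros otherwise, called 6 of the 10 (adjusted p = 1.008e-06 for MAGEA6 and 0.0015 to 0.037 for MAGEA1, MAGEA4, MAGEB2, MAGEC1 and MAGEC2). Side by side with decitabine, the 10 genes summed to 119 and 134.8 CPM in HUCCT1 and 0.106 and 0.309 CPM in EGI-1.

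Genes around the clusters were counted within 200 kb of the outermost MAGE gene of each. No non-MAGE gene passed the filter beside the MAGE-B pair (4 genes) or the MAGE-C pair (5 genes), where MAGEC3 was called higher in HUCCT1. In the MAGE-A region, 14 of 42 non-MAGE genes were tested in HUCCT1, with 9 called higher and 1 lower. Of all genes tested, 19.6% were called higher and 33.5% in either direction, which is no measure for genes that passed the filter through the decitabine libraries alone. PNMA5, of a family derived from a retrotransposon, had 4 and 10 counts in vehicle and 4720 and 4831 with decitabine (log2 fold change 9.36; edgeR adjusted p = 6.29e-21). GABRA3, a GABA receptor subunit gene, had 1 and 1 counts in vehicle and 23 and 21 with decitabine, and GABRQ had 0 and 0 against 44 and 24. PNMA3, CSAG1, MAGEA4-AS1, MAGEA3-DT and MAGEA6-DT were also called higher. ZNF275 rose by less (1638 and 1588 counts in vehicle, 2237 and 2102 with decitabine), GABRE fell by 0.54 on the log2 scale from 1159 and 1138 counts, and CETN2, NSDHL, ZNF185 and ENSG00000286939 were not called. Large increases were thus recorded for tested genes with few or no vehicle reads, which could pass the filter on low counts only with reads in the decitabine libraries. Genes that stayed low were not tested, so these increases do not show how low genes of the region behaved in general. Tested non-MAGE genes expressed in vehicle within the same region changed by under 1 on the log2 scale, apart from CSAG1 at 1.66 and MAGEA6-DT at 2.33. In EGI-1 with the combination, 6 of the 42 were tested, and ZNF185 (1972 and 1835 counts in vehicle, 2146 and 2626 with the combination) and ZNF275 (1122 and 1100, then 1145 and 1464) were called higher, relative to library sizes that differ. There, 18.7% of all genes tested were called in either direction.

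**Figure D5:**
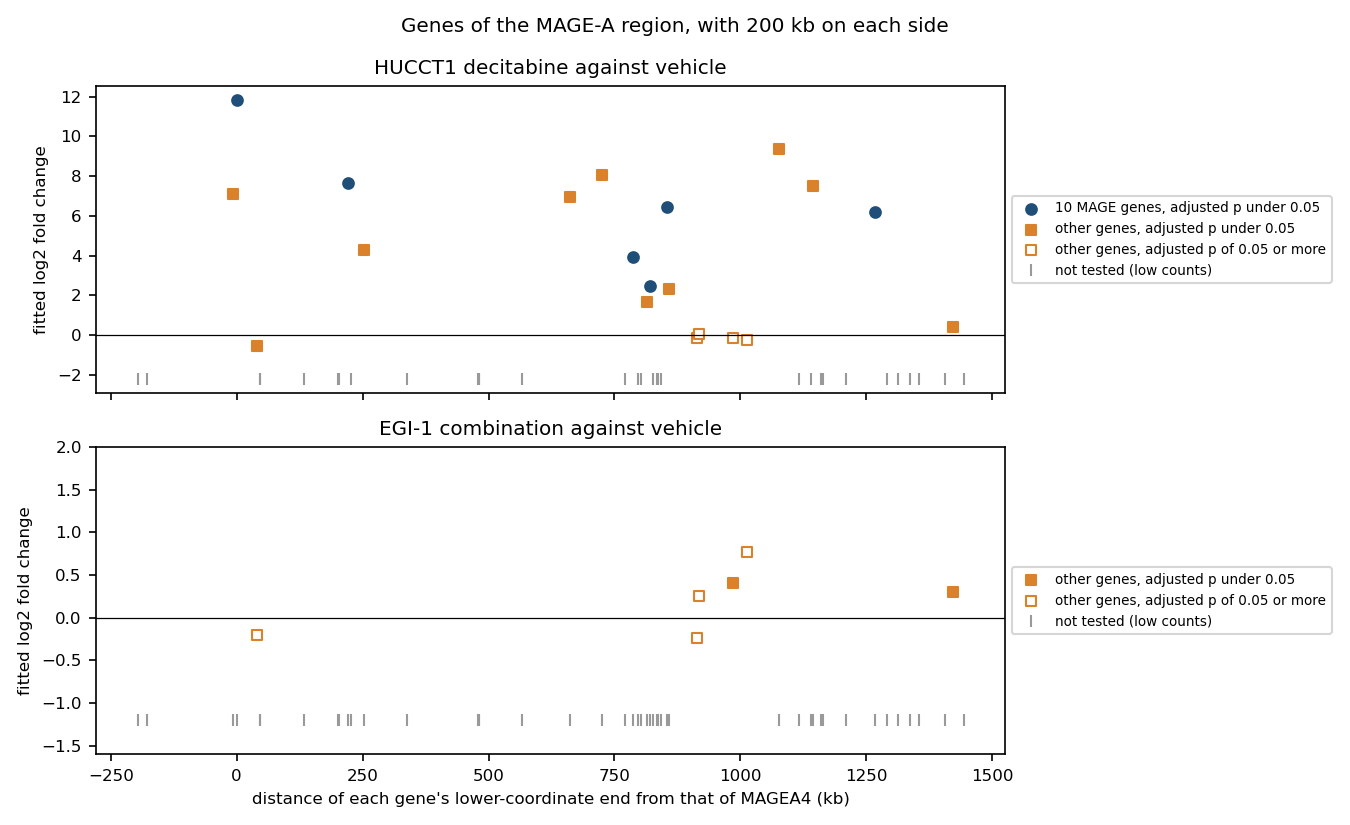
Fitted log2 fold change (y axis) of genes in the MAGE-A region against their distance from MAGEA4 in kb (x axis), for HUCCT1 decitabine against vehicle (top) and the EGI-1 combination against vehicle (bottom). Circles are the MAGE genes under study, squares are other genes, filled where edgeR's adjusted p was under 0.05, and ticks are genes too low to test. The top panel holds 6 filled circles between 2.45 and 11.83 with open squares among them, and the bottom panel holds no circle.

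The genes outside the MAGE family whose log2(CPM + 0.5) was most like that of the 10 genes summed, by Pearson's r over the 12 libraries and 24999 genes, were EXOC3L4 (r = 0.996), FBN2 (0.995), ENSG00000256417, CPT1C and ENSG00000287453. FBN2, which encodes a fibrillin of the extracellular matrix, had 102 and 106 counts in HUCCT1 vehicle, 1487 and 1285 with decitabine and 6 to 10 in EGI-1. With a pseudocount of 2, 2 of these 5 stayed among the top 5, FBN2 and ENSG00000287453. Singly, MAGEC2 was most like MAEL and TDRD1, both of the germline piRNA pathway (r = 0.999 each), MAGEA12 was most like SIX2 and CSAG1, MAGEA3 like SMIM10L2B and CCL2, and MAGEB2 like SLC1A7 and UCHL1. UCHL1, a ubiquitin hydrolase of neurons and germ cells, had 0 and 0 counts in HUCCT1 vehicle, 936 and 1028 with decitabine, and 4 and 1 with the EGI-1 combination. MAGEA1 was most like NTM and CARD18, MAGEA6 like LINC01019 and ENSG00000249642, and MAGEB1 like WT1-AS and ENSG00000286481. MAGEA4 was most like IRX1 and LDOC1, MAGEA10 like PASD1 and NLGN4X, and MAGEC1 like GABRA3 and ENSG00000249642. These r values follow both the rise in the 2 HUCCT1 decitabine libraries and, for genes expressed in HUCCT1 vehicle such as FBN2, the difference between the lines. The libraries of a group are not independent of each other in this sense, and many genes with such a pattern reach a like value.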

How the data were processed

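RNA-seq was performed on 12 libraries, 2 in each of 6 groups taken from the sample labels. The authors deposited 1 table of read counts per gene (whole numbers, not normalized, 60651 genes). Submitters' processing notes name fastp, Trim Galore, HISAT2, featureCounts and GRCh38, whereas the study's methods name STAR and RSEM for the EGI-1 libraries, so the counter is uncertain. Per the study's methods, EGI-1 libraries came from a stranded total RNA kit with ribosomal RNA removed. The table's header has the layout of featureCounts. The annotation version, the treatment of reads with several matches and the strand setting are not given in the sources used here.

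Counts were tested with edgeR 4.0.16 (R 4.3.3): filterByExpr by group with a minimum count of 10, TMM factors, robust quasi-likelihood fits, and Benjamini-Hochberg adjustment over all genes tested, with a call at adjusted p under 0.05. HUCCT1 and EGI-1 were fitted separately, and line comparisons used all 12 libraries. TMM factors were 0.965 to 1.03 in HUCCT1 and 0.99 to 1.01 in EGI-1. CPM used total counts times the TMM factor. Standard errors were taken as the log2 fold change divided by the square root of F. Ratios with few counts have exact (Clopper-Pearson) 95% counting intervals, and floors used 3 counts per library. Both cover counting error only, since no molecular identifiers are named in the sources used here. Genes were placed with GENCODE 44, of which exon words of 75 and 150 bases were searched in GRCh38. Scripts were tested on simulated data. DESeq2 1.42.0 and other settings were tried as alternatives. The members of the gene set, the gene lists and the tests were chosen with earlier results of these data known. Named genes are all 10 MAGE genes, up to 3 genes per list and direction with the lowest p in HUCCT1 decitabine and in the EGI-1 combination against vehicle, the 3 DNMT genes, called neighbours and the most alike genes. Other genes named were chosen after their values were seen.

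Replicate numbers did not meet the rule for pairing. The HUCCT1 groups share only 1 pair of differences (correlation of the deviations from the group means 0.486), and the EGI-1 correlations ran from -0.481 to 0.277, so fits had no block.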

Additional observations from a re-analysis of the deposited data

Results flagged for a closer look

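The effect of decitabine on MAGEA6 differed between the lines, by a log2 difference of 8.78 (SE 1.11; edgeR adjusted p = 7.43e-06; 1 of 10 MAGE genes). The difference was 7.86 without the first EGI-1 decitabine library and 11.13 without the second. MAGEA6 had 9 and 7 counts in HUCCT1 vehicle, 721 and 744 with decitabine, 4 and 2 counts in EGI-1 vehicle, and 0 and 1 with decitabine. Only the HUCCT1 decitabine libraries took the gene past the filter on low counts, which favoured a positive difference, so the call is a description. Line, dose and the code in the library names differ together here, and the counts of MAGEA6 and MAGEA3 are uncertain against each other.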

How the results depend on the processing

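All 10 MAGE genes were called higher in HUCCT1 with decitabine under each of 5 alternatives: RLE and upper-quartile factors, DESeq2, a fit that was not robust, and the replicate block (1 residual degree of freedom). They were also called with no filter on low counts and with each HUCCT1 library left out, but there edgeR took the spread as fully known for 98.3 to 99.1% of genes (0% in the fit reported), so those p-values are too small and say nothing of stability. All 10 were higher each time, and MAGEB2 (log2 fold change 9.52 without the first vehicle library, 12.72 without the second) and MAGEC2 (6.96 and 5.68) moved with the vehicle library left out. The replicate block also gave 10 calls there, and it changed the count of MAGE genes called in no EGI-1 comparison (0 in each). Between the vehicle groups of the lines it gave 3 calls in place of 4. With no filter on low counts, the count went from 0 to 1 in the EGI-1 combination against vehicle and against talazoparib, in both cases MAGEB2, with the spread taken as known for 92.2% of genes. An alternative chosen after seeing the data, no filter and no second combination library, gave 1 against vehicle and 0 against talazoparib and decitabine. DESeq2 called 6 genes in place of 1 for the difference in the decitabine effect between lines. With only the vehicle libraries of both lines in the fit, 2 genes were tested and 2 called in place of 4. Leaving out single libraries gave 3 to 5 calls between the vehicle groups and 1 in each case for the decitabine effect. With 1 library left in a group, that library is assumed to vary like the others. MAGEC2 between the vehicle groups passed the threshold without the second HUCCT1 vehicle library (log2 fold change 2.98, edgeR adjusted p = 0.0321). No result changed direction. Across all genes, the counts behind the percentages moved by over 1.5 times in EGI-1 and for the difference between lines. With decitabine they went from 122 to 335 with no filter, 43 with only the groups compared, 60 with the replicate block, 75 with a block by library naming series, and 22 to 417 with single libraries left out. With talazoparib they went from 923 to 1851 with only the groups compared and 247 to 500 with libraries left out. With the combination they went from 4194 to between 1850 and 2976 with libraries left out, and upper-quartile factors put 2177 of 4421 calls higher in place of 2489 of 4194. Combination against decitabine went from 1720 to 963 with only the groups compared and 853 to 2544 with libraries left out. Combination against talazoparib went from 431 to 897 with no filter, 700 with only the groups compared, 249 with the block and 111 to 440 with libraries left out. Beyond the sum, 36 became 71 with no filter and 27 to 85 with libraries left out. Between lines the decitabine effect went from 4000 to between 2540 and 3761 with libraries left out. Of the genes most like the sum, 2 of 5 were shared with a pseudocount of 2. The number of libraries and the near-zero EGI-1 counts limit precision.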
